A study of Mus musculus with 6 samples.

Results

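Interferon-stimulated genes (ISGs) are the genes that cells switch on when interferon binds its receptor, and 48 of them were followed here in peritoneal macrophages (PMs) of lupus-prone and control mice. The members were a named list, found by gene symbol after the counts of all RefSeq transcript records of a gene were added up. They made up 48 of the 32875 genes in the count files, and 44 of them had enough counts to be tested among 10502 genes. The list held 38 genes of the type I interferon response, 8 GTPases of the Gbp (guanylate-binding protein) and IRG (immunity-related GTPase) families, and the 2 chemokines Cxcl9 and Cxcl10.

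RNA was taken from PMs sorted as F4/80+ and CD11b-high cells, in 3 female control mice and 3 female diseased-BWF1 mice. Control mice were [NZW × BALB/c]F1 animals of 33, 33 and 30 weeks that do not develop the disease. The diseased-BWF1 mice were [NZB × NZW]F1 animals of 31, 31 and 34 weeks, with high titers of antibodies against double-stranded DNA and severe proteinuria. Both crosses had an NZW parent, and the labels name no treatment. The other parent was NZB in the diseased-BWF1 mice and BALB/c in the control mice, so disease and parent strain cannot be told apart. The mice are called Control 1 to Control 3 and Lupic 1 to Lupic 3, as numbered in the labels.

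Type I interferons (the interferon alphas and beta) signal through the receptor IFNAR and the kinases JAK1 and TYK2 to a complex that includes STAT2 and IRF9 and binds the interferon-stimulated response element (ISRE) of its target genes. Interferon gamma signals through its own receptor to gamma-activated sites (GAS) in its target genes, and it is the classical inducer of the Gbp and IRG GTPases. Many genes respond to both. A raised level of type I target genes in blood cells is a known feature of human lupus, and the NZB × NZW cross is one of the oldest mouse models of that disease.

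The libraries held 3629901 to 5003360 counts, of which 89.1% to 93.0% fell on genes. Levels are given as CPM (counts scaled to a common library size) after TMM normalisation, and 3 counts in a library equalled 0.652 to 0.911 CPM. The 9 macrophage markers summed to between 37406 and 50410 CPM in control mice and to between 31497 and 37112 CPM in diseased-BWF1 mice. Lyz2 made up most of this sum. All 9, with Itgam and the peritoneal factor Gata6 among them, were counted in every mouse, and none was called. Of these 9 markers 3, Adgre1, Timd4 and Icam2, were lower in every diseased-BWF1 mouse than in every control mouse, against 11.4% of all genes. Mean CPM in control and diseased-BWF1 mice was 1237 and 856 for Timd4 and 395 and 269 for Icam2. The other markers overlapped between groups, and Fcgr1 had the higher mean in diseased-BWF1 mice (50.6 against 22.5 CPM). In bulk RNA, fewer cells of a type and less RNA per cell cannot be told apart. Over the 6 mice, 7 B cell genes summed to between 2.37 and 7.39 CPM, 6 T cell genes to between 0.304 and 3.25 CPM, 6 neutrophil genes to between 2.17 and 4.75 CPM and 5 conventional dendritic cell genes to between 7.91 and 13.7 CPM. The lists for NK cells, mast cells and mesothelial cells each summed to less than 1 CPM. The 5 plasmacytoid dendritic cell genes, of which Siglech had at most 3 counts and Tcf4 made up most of the level, summed to between 122 and 164 CPM in control mice and to between 99.8 and 116 CPM in diseased-BWF1 mice. The 4 monocyte markers described here summed to between 15.01 and 15.5 CPM in control mice and to between 14.1 and 47.7 CPM in diseased-BWF1 mice, with Ly6c2 at no more than 3 counts in any mouse. The part of these lists in the ISG levels was not tested. In the genes described here 1 library of each group stood apart. Control 1 had the highest level of the 3 control mice for 41 of the 44 tested members (93.2%), against 28.4% of all tested genes, and Lupic 3 the lowest of the 3 diseased-BWF1 mice for 41 (93.2%), against 34.6%. Comparisons that leaving out a mouse moved most are therefore also given without that mouse, chosen after the values were seen. Control 1 had the deepest library, at 5003360 counts, and it was as old as Control 2 at 33 weeks.

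Promoters in the RefSeq table of GRCm38.p6 (from 250 bases before to 50 bases after an annotated start) were found for 36 of the 48 members, 44 promoters in all. They were searched for the ISRE letters GAAANNGAAA on either strand (TTTCNNTTTC on the other) and for the GAS letters TTCNNNGAA, which read the same on both strands. The ISRE letters were in 20 of the 44 promoters (45.5%), against 3.44% of all 32851 promoters of this length. The GAS letters were in 10 of 44 (22.7%), against 8.3% of all promoters. Of the members with a promoter, 12 of 27 type I genes and 6 of 7 GTPase genes had ISRE letters. GAS letters were in 7 of the type I genes and 3 of the GTPase genes. Both motifs were in 3 type I genes (Bst2, Eif2ak2 and Oas1a) and 3 GTPase genes (Gbp7, Igtp and Irgm2). The matches can overlap each other, and they describe letters in the window, not binding.

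The windows below were chosen among promoters with a match and belong to members described in the next paragraphs. Other members described there had no match, such as Irf7, Ifi44 and Oasl2. For some, such as Siglec1, Ly6e and Mx1, no promoter was found. They run 5′ to 3′ on the gene's strand, with ISRE and GAS letters in capitals. The Isg15 window (chr4:156200855-156200916, minus strand) holds 3 overlapping ISRE matches, and that of Bst2 (chr8:71537567-71537622, minus strand) holds ISRE matches that overlap a GAS match. Oas3 (chr5:120777705-120777754, minus strand) and Gbp2 (chr3:142620584-142620633, plus strand) have one match each. Irf1 (chr11:53769904-53769952, plus strand) has a GAS match alone. Igtp (chr11:58199491-58199539, plus strand) and Irgm2 (chr11:58214882-58214930, plus strand) lie near each other and their windows differ at 1 of 49 bases. The windows of Ifit3 (chr19:34583353-34583436, plus strand) and Ifit3b (chr19:34607749-34607832, plus strand) are the same over 84 bases, although Ifit3b was barely counted here.
Isg15: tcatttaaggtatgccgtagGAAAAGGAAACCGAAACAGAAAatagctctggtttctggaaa
Bst2: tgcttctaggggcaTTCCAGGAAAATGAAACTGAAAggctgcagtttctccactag
Oas3: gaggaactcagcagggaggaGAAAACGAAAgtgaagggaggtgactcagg
Gbp2: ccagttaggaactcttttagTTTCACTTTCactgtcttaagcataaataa
Irf1: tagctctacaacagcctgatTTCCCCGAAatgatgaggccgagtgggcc
Igtp: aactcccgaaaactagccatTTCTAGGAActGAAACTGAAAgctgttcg
Irgm2: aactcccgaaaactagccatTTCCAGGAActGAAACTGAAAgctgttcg
Ifit3: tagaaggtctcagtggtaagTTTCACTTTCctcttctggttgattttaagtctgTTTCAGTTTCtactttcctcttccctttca
Ifit3b: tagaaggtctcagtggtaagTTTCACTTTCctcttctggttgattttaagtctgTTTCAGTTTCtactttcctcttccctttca

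No member of the list passed the test between diseased-BWF1 and control mice. None of the 44 tested members was called (adjusted p under 0.05 and at least 1.5-fold), where 128 of 10502 genes were called (1.22%), 42 of them higher (0.4%) and 86 lower (0.819%) in diseased-BWF1 mice. With so small a share called, the lack of calls among 44 genes does not set the members apart from other genes. An unadjusted p under 0.05 was reached by 2 members, Bst2 and Ifi44, both lower, against 13.2% of all genes. DESeq2, which called 3.55% of all genes, also called no member, with the smallest adjusted p at 0.0555 for Bst2. By direction, 27 members had a higher mean and 17 a lower one in diseased-BWF1 mice. The median log2 fold change was 0.11 for the 36 tested type I genes, -0.09 for the 8 GTPases and 0.01 for all tested genes.

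The mice within a group lay further apart than the group means. As the plot of levels by mouse shows, the mean level of the type I genes relative to the control mean was 0.66 in Control 1, -0.27 in Control 2 and -0.39 in Control 3 on the log2 scale. It was 0.23 in Lupic 1, 0.46 in Lupic 2 and -0.39 in Lupic 3. The highest level was thus in a control mouse, and the lowest levels were shared by one mouse of each group. For the GTPases the levels were 1.09, -0.43 and -0.66 in Control 1 to Control 3, and 0.42, 0.19 and -0.36 in Lupic 1 to Lupic 3. Control 1 again lay above every other mouse. Over all tested genes no mouse was more than 0.03 from the control mean, a closeness that the scaling itself brings about.

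**Figure D1:**
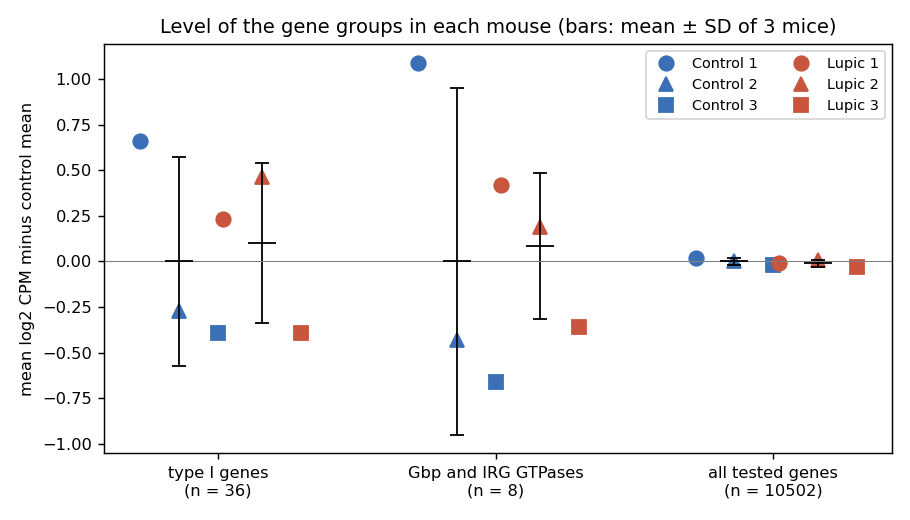
Mean log2 CPM of the 36 type I genes, the 8 Gbp and IRG GTPases and all 10502 tested genes in each mouse, relative to the mean of the 3 control mice (y axis). Points are mice and bars are the mean ± SD of 3 mice. Control 1 is highest in both gene groups, at 0.66 and 1.09, and Lupic 3 is the lowest diseased-BWF1 mouse in both, at -0.39 and -0.36.

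In Control 1, 29 of 44 members (65.9%) were at their highest of all 6 mice, against 12.4% of all genes. All 8 GTPases and 21 of 36 type I genes were among them. Its level was at least 2-fold above both other control mice for 17 of 44 members (38.6%), against 1.17% of all genes. On the diseased side, Lupic 3 was at least 2-fold below both others for 9 members, against 2.94% of all genes. Lupic 2 was the highest of the diseased-BWF1 mice for 26 members and Lupic 1 for 17. The heat map of members by mouse shows these columns side by side.

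**Figure D2:**
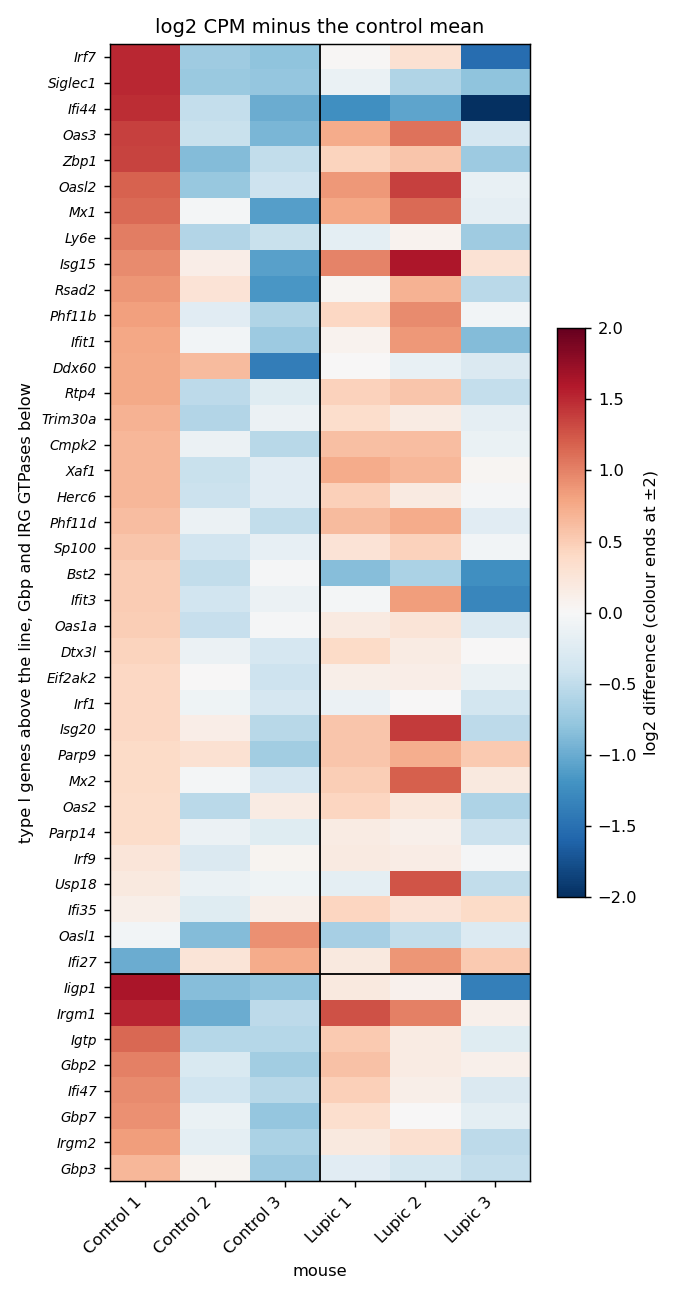
Log2 CPM of each of the 44 tested members in each mouse (columns) minus the mean of the 3 control mice, on a colour scale that ends at ±2. Type I genes stand above the horizontal line and Gbp and IRG GTPases below it, each ordered by the level in Control 1. The Control 1 column is red for all members but Oasl1 and Ifi27.

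Among proteins at the cell surface, Siglec1 (the macrophage adhesion receptor CD169) had 777, 161 and 159.5 CPM in Control 1 to Control 3 and 249, 179.5 and 154 CPM in Lupic 1 to Lupic 3. Control 1 was 4.81-fold above the next control mouse, and the other 5 mice lay close together. Its log2 fold change between groups was -0.92 (standard error 0.62, edgeR adjusted p = 0.588) with all mice and 0.27 without Control 1. Ly6e, a GPI-anchored protein and the most abundant member per length of transcript (mean 329 CPM per kb), had 1539, 503 and 550.2 CPM in control mice and 656, 788 and 461 CPM in diseased-BWF1 mice. Here too Control 1 was highest and the groups otherwise overlapped, with a log2 fold change of -0.45 (standard error 0.45) that became 0.27 without Control 1.

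Bst2 (tetherin, which holds budding virus at the membrane) differed from this pattern. It had 113, 55.9 and 77.8 CPM in control mice and 43.5, 50.4 and 33.5 CPM in diseased-BWF1 mice. Every diseased-BWF1 mouse was below every control mouse, as for 11.4% of all genes. Its log2 fold change was -0.96 (standard error 0.27), with an edgeR adjusted p of 0.187, the smallest of the members, and it was -0.66 without Control 1. The exact two-sided permutation test gave p = 0.1, the smallest that 3 against 3 mice allow.

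Ifi44, an interferon-induced protein found in the cytoplasm, was the other member below all control mice. It had 80.9, 20.6 and 14.3 CPM in control mice and 11.999, 13.6 and 2.90 CPM in diseased-BWF1 mice. Lupic 1 and Lupic 2 were just under Control 3, while Lupic 3 was well under the rest. The log2 fold change was -2.03 (standard error 0.76, edgeR adjusted p = 0.314) and moved to -0.88 without Control 1. On chromosome 3 its neighbour Ifi44l, which is no member, starts 8826 bases beyond it (chr3:151758737-151762891 against chr3:151730922-151749910, GRCm38.p6). Ifi44l had 53.1, 14.4 and 15.8 CPM in control mice and 0 counts in all 3 diseased-BWF1 mice. It was at least 34.7-fold lower there, taking 3 counts as the floor of each library, or at least 18.9-fold lower against Control 2 and Control 3 alone. It was called lower (edgeR adjusted p = 0.0485), and also with DESeq2 (adjusted p = 2.1e-09).

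The opposite order was seen in Ifi35 and Parp9, for which every diseased-BWF1 mouse was above every control mouse, as for 9.45% of all genes. Ifi35, an interferon-induced leucine zipper protein, had 27.0, 20.9 and 27.0 CPM in control mice and 33.5, 30.1 and 32.4 CPM in diseased-BWF1 mice. The gap between the groups was small but so was the spread, and the log2 fold change was 0.36 (standard error 0.16, edgeR adjusted p = 0.398). Parp9, which acts with the ubiquitin ligase Dtx3l, had 27.6, 25.8 and 12.8 CPM in control mice and 31.0, 34.9 and 30.3 CPM in diseased-BWF1 mice. Control 3 was the low mouse of its group, and the log2 fold change was 0.53 (standard error 0.28, edgeR adjusted p = 0.481), 0.27 without Control 3 and 1.38 with curated mRNA records alone. Parp14, of the same family, had 294, 209 and 190.2 CPM in control mice and 255, 244 and 169 CPM in diseased-BWF1 mice, which overlapped.

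**Figure D3:**
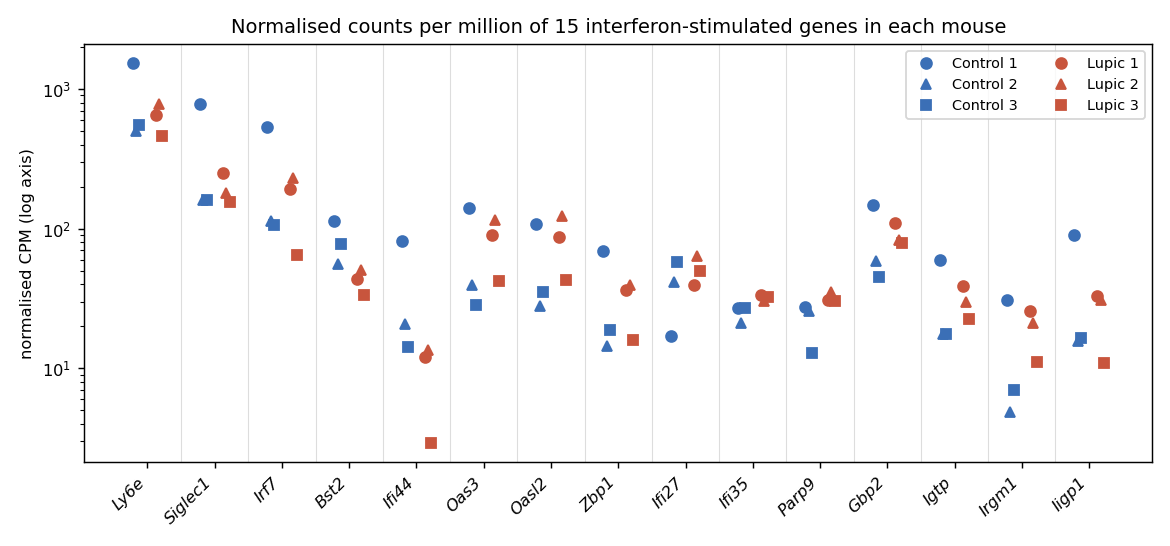
Normalised CPM (log axis) of 15 members in each of the 6 mice. Control 1 lies above the other control mice for 13 of the 15 genes, the exceptions being Ifi27 and Ifi35. Bst2 and Ifi44 have every diseased-BWF1 mouse below every control mouse, and Ifi35 and Parp9 have every one above.

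Of the interferon regulatory factors, Irf7, the factor that amplifies type I interferon production, had 534, 114 and 106 CPM in control mice and 191, 230.2 and 64.9 CPM in diseased-BWF1 mice. Control 1 was 4.68-fold above the next control mouse, and Lupic 3 was the lowest of all mice. Irf7 was among the 4 members of largest spread in both groups (SD of log2 CPM 1.31 and 0.98), and its log2 fold change of -0.64 (standard error 0.71) became 0.55 without Control 1. Irf1, which responds strongly to interferon gamma, had 151, 107 and 89.9 CPM in control mice and 104, 113 and 88.3 CPM in diseased-BWF1 mice. It moved far less between mice than Irf7 did, with an SD of 0.38 and 0.18 on the log2 scale. Irf9, the DNA-binding part of the type I complex, moved less still, with an SD of 0.27 and 0.11.

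The ISG15 system attaches and removes a ubiquitin-like protein. Isg15 itself was low, with 6.52, 3.53 and 1.22 CPM in control mice and 6.75, 10.7 and 3.95 CPM in diseased-BWF1 mice, which is 4 to 40 counts a library. Control 3 was lowest and Lupic 2 highest, and the log2 fold change of 0.88 (standard error 0.59, edgeR adjusted p = 0.587) was the largest positive one among the members. It was 1.55 without Control 1 and 0.48 without Lupic 2. Herc6 and Usp18 also had higher means in diseased-BWF1 mice, and none of these 3 genes was called. The ISG15 protease Usp18 stood out by its order: Control 1 to Control 3 were close, at 9.35, 7.33 and 7.60 CPM, while Lupic 2 had 20.003 CPM against 6.9995 in Lupic 1 and 5.54 in Lupic 3.

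The Ifit proteins, which bind viral RNA, were near the limit of counting. Ifit1 had 5.22, 2.71 and 1.52 CPM in control mice and 3.00, 5.601 and 1.32 CPM in diseased-BWF1 mice. Ifit3 had 5.002, 2.44 and 3.04 CPM in control mice and 3.25, 6.40 and 1.05 CPM in diseased-BWF1 mice, and 41.1% of its 75-base stretches also occur in Ifit3b, so reads could be divided between them. Neither passed the test, with log2 fold changes of 0.03 (standard error 0.63) and 0.01 (standard error 0.62), and their sign turned with the mouse left out. Ifit2 and Ifit3b did not reach the filter on low counts: Ifit2 had 5.87 CPM in Control 1, 0 counts in the other control mice, 2.25 and 3.20 CPM in Lupic 1 and Lupic 2 and 0 counts in Lupic 3. Ifit3b had at most 0.652 CPM in any mouse. The chemokines Cxcl9 and Cxcl10, ligands of CXCR3, were also untested, with at most 2.61 and 0.652 CPM.

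The oligoadenylate synthetases (OAS), which start RNA decay by RNase L, were among the better counted members. Oas1a had 108, 55.4 and 74.7 CPM in control mice and 86.5, 91.5 and 63.0 CPM in diseased-BWF1 mice, with 47.6% of its 75-base stretches shared with Oas1g. The groups overlapped fully, and the log2 fold change was 0.01 (standard error 0.26) over all records of the gene but 1.88 with curated mRNA records alone. Oas3 had 139, 39.4 and 28.3 CPM in control mice and 90.2, 115 and 42.4 CPM in diseased-BWF1 mice. Oasl2 had 108, 27.7 and 35.2 CPM against 86.7, 123 and 42.7 CPM. In both genes Control 1, Lupic 1 and Lupic 2 were high and the other 3 mice low. Oasl1 had another order, with 5.65, 2.99 and 11.5 CPM in control mice and 3.50, 4.001 and 4.75 CPM in diseased-BWF1 mice, so that Control 3 was highest. Its log2 fold change was -0.70 (standard error 0.49, edgeR adjusted p = 0.601), and it was -0.10 without Control 3.

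The Mx proteins are dynamin-like GTPases that act against viruses. Mx1 had 27.6, 11.9 and 5.47 CPM in control mice and 21.2, 27.5 and 10.8 CPM in diseased-BWF1 mice. Mx2 had 7.83, 5.70 and 4.56 CPM against 8.50, 14.1 and 6.86 CPM. Lupic 2 was highest for Mx2 and Control 1 for Mx1, the groups overlapped in both, and the log2 fold changes were 0.38 (standard error 0.56) and 0.69 (standard error 0.35, edgeR adjusted p = 0.475 for Mx2). Without Control 1 that of Mx1 was 1.17, and without Lupic 2 they were 0.08 and 0.34. Among the effectors that act on RNA and nucleotides, the exonuclease Isg20 had 6.96, 5.70 and 3.34 CPM in control mice and 7.75, 14.4 and 3.43 CPM in diseased-BWF1 mice, with Lupic 2 alone above 8 CPM and a log2 fold change of 0.66 that became 0.06 without that mouse. The nucleic acid sensor Zbp1 had 68.7, 14.4 and 18.8 CPM in control mice and 36.5, 39.2 and 15.8 CPM in diseased-BWF1 mice, so Control 1 was 3.65-fold above the next control mouse. Rsad2 (viperin), Cmpk2, Eif2ak2 (the kinase PKR) and Ddx60 completed this role, and Control 1 was the highest control mouse for all 6 of its genes.

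Phf11b, one of a cluster of PHD finger genes, had 50.5, 24.2 and 18.5 CPM in control mice and 38.0, 55.2 and 27.4 CPM in diseased-BWF1 mice, and 26.8% of its 75-base stretches occur in other genes of the family or a related gene. Sp100, a nuclear body protein, had 174, 89.8 and 105 CPM in control mice and 142, 162 and 113 CPM in diseased-BWF1 mice. In both, Control 1, Lupic 1 and Lupic 2 made up the upper 3 mice. Their log2 fold changes of 0.36 (standard error 0.41) and 0.18 (standard error 0.26) became 0.91 and 0.52 without Control 1, and that of Sp100 was 0.76 with curated mRNA records alone.

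Ifi27, a mitochondrial protein, ran against most of the list. It had 17.0, 41.3 and 58.0 CPM in control mice and 39.5, 64.0 and 49.6 CPM in diseased-BWF1 mice. Control 1 was the lowest of all 6 mice, whereas it was the highest of the 6 for 29 members. Oasl1 and Ifi35 were the other tested members in which Control 1 was not the highest control mouse. The log2 fold change of Ifi27 was 0.41 (standard error 0.41) and fell to 0.04 without Control 1. The remaining type I genes Rtp4, Xaf1, Trim30a, Phf11d, Dtx3l and Oas2 were not called and overlapped between groups.

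The Gbp and IRG GTPases, which attack the vacuoles of intracellular microbes, were all highest in Control 1. Irgm1, a regulator of the other IRG proteins, had 30.7, 4.89 and 6.99 CPM in control mice and 25.5, 21.1 and 11.1 CPM in diseased-BWF1 mice. All 3 diseased-BWF1 mice lay above Control 2 and Control 3 and below Control 1. Its log2 fold change was 0.41 (standard error 0.66, edgeR adjusted p = 0.839) with all mice and 1.69 without Control 1. Iigp1, an effector IRG protein, had 90.5, 15.7 and 16.4 CPM in control mice and 32.7, 30.7 and 10.8 CPM in diseased-BWF1 mice. It had the largest spread of the tested members in control mice (SD 1.42 on the log2 scale), and Control 1 was 5.51-fold above the next control mouse. Its log2 fold change changed sign, from -0.74 (standard error 0.74) to 0.62 without Control 1.

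Igtp had 59.4, 17.6 and 17.6 CPM in control mice and 38.5, 29.9 and 22.4 CPM in diseased-BWF1 mice. Ifi47, an IRG protein that the list names with the Ifi genes, had 55.9, 21.7 and 19.4 CPM against 40.0, 31.2 and 23.5 CPM. Both had Control 1 at the top, the diseased-BWF1 mice in the middle and the remaining control mice at the bottom. Gbp2 showed the same order, with 149, 58.9 and 44.97 CPM in control mice and 110.5, 82.4 and 78.8 CPM in diseased-BWF1 mice. Gbp7 had 204, 99.3 and 63.5 CPM against 137, 109 and 95.7 CPM, and Gbp3 had 186, 122 and 70.8 CPM against 99.5, 91.5 and 84.1 CPM. For Gbp3 the diseased-BWF1 mice lay between Control 2 and Control 3, and the log2 fold change was -0.46 (standard error 0.31, edgeR adjusted p = 0.591), or -0.07 without Control 1. Irgm2 lay at 26.1 to 73.9 CPM in control mice and 28.5 to 51.2 CPM in diseased-BWF1 mice.

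The ISGs varied more between mice of a group than most genes did. For the members, the median SD of log2 CPM was 0.71 among control mice and 0.39 among diseased-BWF1 mice, where all tested genes had 0.24 and 0.21. In control mice it was 0.61 for type I genes and 0.87 for the GTPases, and in diseased-BWF1 mice 0.41 and 0.38. The SD was larger in control than in diseased-BWF1 mice for 38 of 44 members (86.4%), against 55.4% of all genes. The members with a larger SD in diseased-BWF1 mice included Ifit3 (1.07 against 0.46), Isg20 (0.96 against 0.49) and Usp18 (0.94 against 0.18). Over Control 2 and Control 3 alone, the median SD of the members was 0.27, and over Lupic 1 and Lupic 2 alone it was 0.16. Leaving out the mouse that stood apart lowers an SD by construction. The control value was the larger with all mice and with that mouse of each group left out. With Control 1 alone left out, the control value of 0.27 was below the 0.39 of all diseased-BWF1 mice. That comparison is uneven, since it keeps Lupic 3, and it does not decide what the wider control spread rested on.

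**Figure D4:**
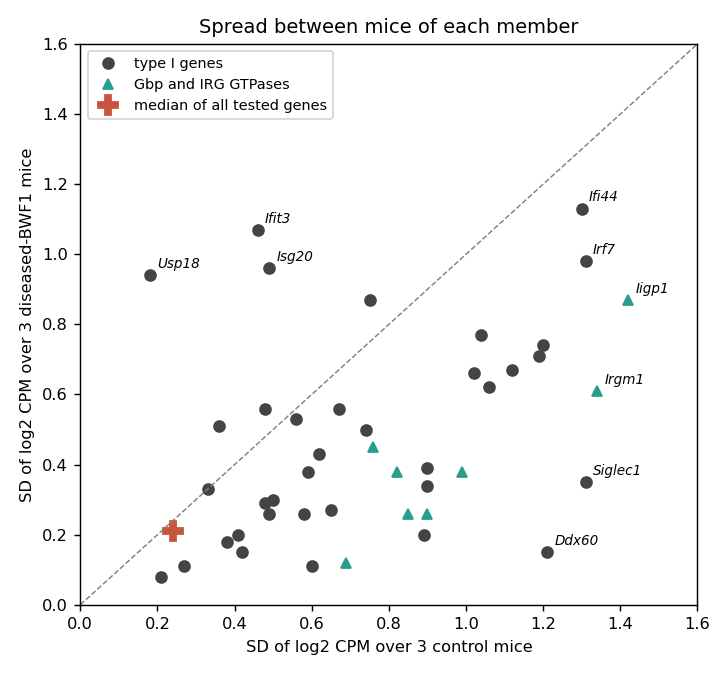
SD of log2 CPM over the 3 control mice (x axis) and over the 3 diseased-BWF1 mice (y axis) for each of the 44 tested members, with the diagonal of equal SD dashed and the median of all tested genes as a cross. Most members lie to the right of the cross and below the diagonal. Ifit3, Isg20 and Usp18 lie above it.

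Leaving out Control 1 turned the direction of many members but called none. This mouse was chosen because it stood high, as the highest control mouse for 41 of 44 members. Its removal therefore raises most of their fold changes by construction, and the values below describe that shift. With the remaining 5 mice, 39 of 44 members had a higher mean in diseased-BWF1 mice, in place of 27. The median log2 fold change was 0.48 for type I genes and 0.62 for the GTPases, with 0.01 for all tested genes. An unadjusted p under 0.05 was reached by 11 of 44 members, against 11.7% of all genes in that fit. No member was called, where 0.38% of all genes were, and the smallest edgeR adjusted p was 0.199, for Irgm1. DESeq2 on the same 5 mice, added after the data were seen, gave 0.0542 for Irgm1 and called none. Other mice moved the counts as well: the means of 34 of these members were higher in diseased-BWF1 mice without Lupic 3, and those of 16 without Control 2. Without Lupic 3 the median log2 fold change was 0.30 for type I genes and 0.10 for the GTPases. In 26 of 44 members the log2 fold change took both signs over the 6 leave-one-out fits.

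**Figure D5:**
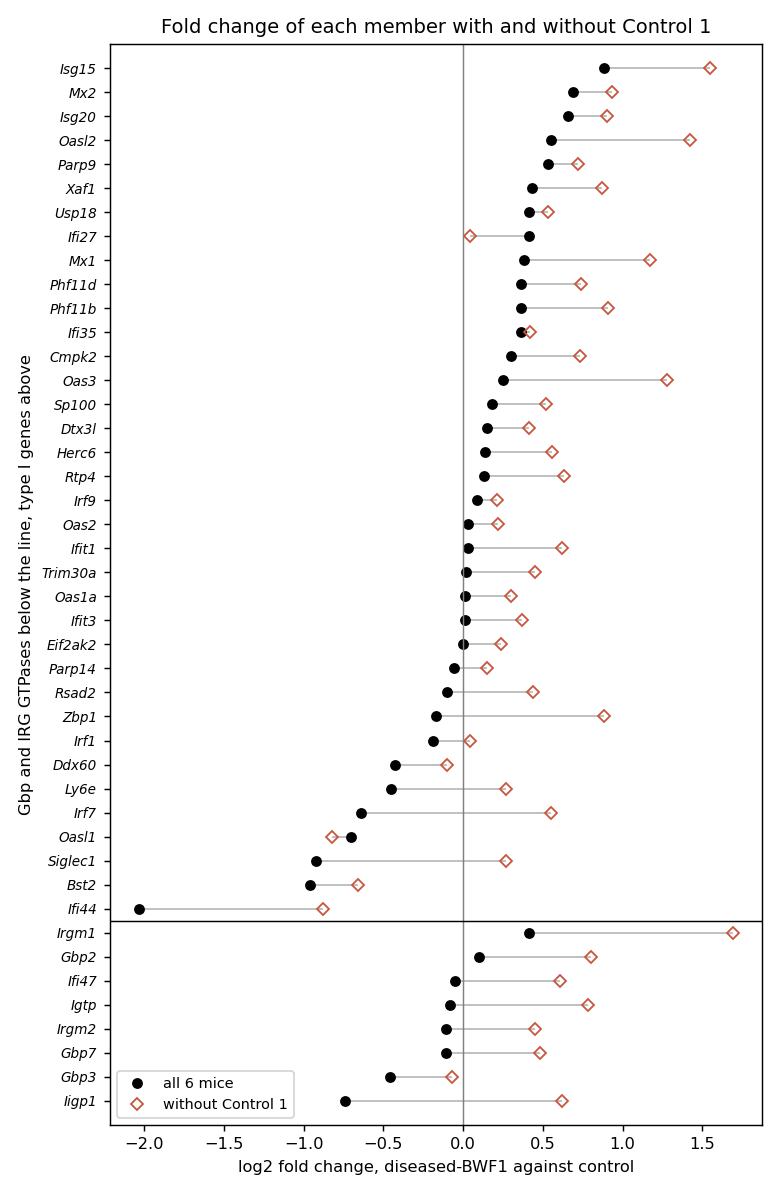
Log2 fold change (x axis) of each tested member between diseased-BWF1 and control mice, with all 6 mice (filled circles) and without Control 1 (open diamonds). Most diamonds lie to the right of their circle, as leaving out a mouse chosen for its high level brings about, and 39 of 44 are above 0. Ifi27 and Oasl1 move to the left, and Bst2 and Ifi44 stay below 0.

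The interferons themselves were not found at this depth. Of 11 interferon genes looked for, none was tested, and all but Ifnk, which had at most 2 counts in a mouse, were at 0 counts in every library. The receptors were well counted. Ifnar2 had 219, 212 and 245 CPM in control mice and 149, 149.6 and 124 CPM in diseased-BWF1 mice. Every diseased-BWF1 mouse was below every control mouse, as for 11.4% of all genes, and the log2 fold change was -0.68 (standard error 0.14). This was not called by edgeR (adjusted p = 0.073) but was by DESeq2 (adjusted p = 0.000894), and leaving out Control 1 changed it little (DESeq2, -0.69). Its partner Ifnar1 had 155, 170.4 and 111.5 CPM in control mice against 153, 118 and 137 CPM, a difference of -0.10 on the log2 scale (standard error 0.19). The interferon gamma receptor chain Ifngr1 had 161, 172 and 149.8 CPM in control mice and 176, 198 and 247 CPM in diseased-BWF1 mice. Every diseased-BWF1 mouse was above every control mouse, as for 9.45% of all genes. The difference did not pass the test (log2 fold change 0.36, standard error 0.16), and that of Ifngr2 was 0.03 (standard error 0.16). The kinases Jak1 and Tyk2 had -0.06 (standard error 0.13) and 0.39 (standard error 0.23; 0.16 without Control 3), and no receptor or kinase was called by edgeR.

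Stat2, a part of the type I complex, had 115, 36.1 and 79.6 CPM in control mice and 57.0, 50.1 and 51.7 CPM in diseased-BWF1 mice. As for most ISGs, Control 1 was highest and the control mice spread more widely, and the log2 fold change was -0.54 (standard error 0.37), or -0.13 without Control 1. Socs1, the feedback inhibitor of JAK kinases, was untested at no more than 1.33 CPM. Of the kinases and factors that induce interferon, Ikbke (IKK epsilon) rose from 83.3, 79.0 and 75.04 CPM in control mice to 164, 123 and 146 CPM in diseased-BWF1 mice. The groups did not overlap, as for 9.45% of all genes in this direction. The log2 fold change was 0.87 (standard error 0.14, edgeR adjusted p = 0.0437). DESeq2 gave an adjusted p of 9.4e-05. The edgeR call was lost in each of the 6 fits that left out a mouse, in which the log2 fold change was 0.76 to 0.98, and that of Ifi44l in 5 of them, the exception being the fit without Control 1.

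Over all pathway lists, 92 of 119 genes were tested, Ikbke was called higher and Ifi44l lower, and the rest were not called. The 2 calls were 2.17% of the genes tested on these lists, near the 1.22% of all genes. Of 11 Gbp and IRG genes outside the list, 7 had enough counts to be tested, and these repeated the pattern in Control 1. All 7 were highest there of all 6 mice, and at least 2-fold above both other control mice. The untested ones had few counts: Gbp4, Gbp8 and Tgtp1 were highest in Lupic 2 (11, 24 and 12 counts) and Gbp11 in Control 1 (7 counts). Gbp2b had 326, 131 and 59.2 CPM in control mice and 151, 115 and 27.9 CPM in diseased-BWF1 mice, and Tgtp2 had 33.5, 5.70 and 3.95 CPM against 5.75, 5.33 and 4.48 CPM. Of 48 further interferon-inducible genes, 29 (60.4%) were highest in Control 1, and their mean level there was 0.45 above the control mean on the log2 scale. Control 1 was the highest mouse for 6 of 15 sensors and adaptors (40%) and for 2 of 2 STAT genes, against 12.4% of all genes. It was the highest for 1 of 8 receptors and kinases, 1 of 6 negative regulators and 0 of 6 induction kinases and factors.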

How the data were processed

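PMs of 3 control and 3 diseased-BWF1 mice were sequenced from stranded mRNA libraries (KAPA kit, paired-end reads on a MiSeq). The authors deposited whole-number estimated counts per RefSeq record for each mouse, without normalization. Their methods name DESeq2, and the submitters' processing notes name Salmon 0.8.0, DESeq2 and the build GRCm38.p6, without their roles.

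Of 107193 records, 45749 matched the RefSeq gene table (GRCm38.p6) with the same version and 40709 with another version, and 20735 unmatched records were left out. Records were summed per gene. The comparison used filterByExpr, TMM, estimateDisp, glmQLFit and glmQLFTest in edgeR 4.0.16 (R 4.3.3), with Benjamini-Hochberg adjustment over 10502 genes, and genes were called where the adjusted p lay below 0.05 and the groups differed by 1.5-fold or more, the thresholds of the authors. Levels are TMM-normalised CPM, and log2 CPM used a prior count of 2. DESeq2 1.42.0 and limma 3.58.1 served as alternatives, with other scalings, filters, records and covariates and each mouse left out. Sequence sharing was counted as 75-base stretches of GENCODE transcripts, and levels per length used the longest coding transcript. Exact permutation tests used scipy 1.17.1. The fits were also run on simulated data in which all genes shared 1 dispersion (0.0543). Members that vary more between mice are not covered by that run.

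The members and gene lists were chosen with earlier results of these data known. Values per mouse are given for the 10 members with the smallest p, the 6 of highest mean CPM, the 4 of largest SD in each group, the first of each role and some others chosen after their values were seen. Among pathway genes, Stat2, the receptor chains, Jak1, Tyk2, Socs1 and called genes were named. Libraries of 3629901 to 5003360 counts limit precision for the members of few counts, such as Isg15 and the Ifit genes. Some genes and markers are not reported here.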

Additional observations from a re-analysis of the deposited data

How the results depend on the processing

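No member was called under any of the alternatives run. The number of all genes called was 128, and it was 373 with DESeq2, 259 with no filter on low counts, 84 with at least 10 counts in every library, 16 with curated mRNA records alone, 261 with DESeq2 without Control 1 (added after the data were seen), and 21 to 56 when 1 mouse was left out. The number of pathway genes called was 2, and it was 0 with limma-voom, with curated records alone and with age as a covariate, 1 with RLE normalization and with at least 10 counts in every library, 6 with DESeq2 without Control 1, and 0 to 1 when 1 mouse was left out. For Ikbke the call was lost with limma-voom, curated records, age and the replicate number as a block, and for Ifi44l with limma-voom, curated records, age and RLE, while the log2 fold change of Ikbke stayed between 0.76 and 0.98 over all alternatives. The median of the GTPases ran from -0.37 to 0.62 when 1 mouse was left out (0.62 without Control 1, and with DESeq2 without it), and that of the type I genes from -0.05 to 0.48. Members with a positive log2 fold change numbered 16 to 39 over these fits, and the median SD in control mice ran from 0.27 to 0.92.

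The labels name no pairing of mice by replicate number. Deviations of same-numbered mice correlated at 0.118, 0.00554 and 0.157, and those of differently numbered mice at -0.144 to 0.0573. Whether the numbers pair the mice was not tested. With the replicate number as a block, 38 genes were called, 1 of them a pathway gene and none a member, and log2 fold changes that turned sign were -0.13 for Ifit3, 0.08 for Ifi47 and 0.04 for Gbp7.

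Of the 34 genes whose log2 fold change was followed, these turned sign elsewhere. With limma-voom, Ifit1 had -0.08, Ifit3 -0.27, Ifi47 0.06 and Gbp7 0.05. With age as a covariate, Ifit1 had -0.0041, Ifit3 -0.15 and Oas1a -0.0016. With no filter, Ifit3 had -0.01 and Oas1a -0.0037. With curated records, Phf11b had -0.07 and Ifnar1 0.05, and, with no turn of sign, Oas1a moved to 1.88, Parp9 to 1.38, Sp100 to 0.76 and Tyk2 to 0.71. With DESeq2 without Control 1, Ifi47 had 0.62, Irf1 0.05, Irf7 0.56, Parp14 0.16, Gbp7 0.49, Iigp1 0.63, Siglec1 0.28 and Ly6e 0.28. Over the fits that left out 1 mouse, values ran from -0.56 to 0.62 for Ifit1, -0.69 to 0.44 for Ifit3, -0.31 to 0.61 for Ifi47, -0.01 to 1.17 for Mx1, -0.18 to 0.30 for Oas1a, -0.34 to 0.04 for Irf1, -1.0 to 0.55 for Irf7, -0.18 to 0.15 for Parp14, -0.42 to 0.48 for Gbp7, -1.12 to 0.62 for Iigp1, -1.27 to 0.27 for Siglec1, -0.72 to 0.27 for Ly6e, -0.25 to 0.03 for Ifnar1 and -0.10 to 0.12 for Ifngr2. Apart from the fits with fewer mice or records, the cause was not tested.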

Other observations

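Control 1 was also high in genes outside the interferon lists. In all, 123 tested genes (1.17%) were at least 2-fold above both other control mice there. Of these, 17 were members, 14 were on the other interferon lists and 92 were on none of these lists. The same count within the group was 72 for Control 2, 210 for Control 3, and 105, 174 and 124 for Lupic 1 to Lupic 3. By this count over all genes Control 1 did not stand out. The lists do not hold every interferon-inducible gene, so the 92 may include some. Which of the 92 to name was decided with the values in view. Those with the largest folds at 20 CPM or more included the MHC class II genes, which present antigen to CD4 T cells. Cd74, the invariant chain, had 509, 57.5 and 52.3 CPM in Control 1 to Control 3 and 429, 69.1 and 51.4 CPM in Lupic 1 to Lupic 3. H2-Aa had 148, 20.4 and 14.6 CPM against 137, 30.9 and 18.5 CPM, and H2-Ab1 had 87.2, 14.4 and 7.60 CPM against 98.5, 25.3 and 16.3 CPM. In these genes 1 mouse of each group, Control 1 and Lupic 1, was high and the other 4 were low. Lupic 1 was not set apart in this way for the ISGs, where it lay at least 2-fold above both other diseased-BWF1 mice for 0 of 44 members.

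Fcgr1 (the high-affinity IgG receptor CD64) had 48.9, 8.14 and 10.3 CPM in control mice and 73.5, 54.4 and 24.0 CPM in diseased-BWF1 mice. Axl, a receptor for apoptotic cells, had 205, 64.3 and 60.5 CPM against 322, 351 and 80.2 CPM. Both were high in Control 1, Lupic 1 and Lupic 2 and lower in the other 3 mice, the order seen in Oas3 and Oasl2. Slfn4, a Schlafen gene of myeloid cells, had 1797, 771 and 519 CPM in control mice and 563, 1034 and 289 CPM in diseased-BWF1 mice.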
